A study of Mus musculus with 11 samples.

Results

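The genes described here encode the proteins of the cytosolic ribosome. They were taken by symbol (Rpl and Rps followed by a number and at most a letter and a digit, Rplp0 to Rplp2, and Rpsa), which found 84 of the 25677 genes in the count table and left out the S6 kinases and every gene named as a pseudogene. Of the 84 genes, 32 encode proteins of the small (40S) subunit, 49 those of the large (60S) subunit and 3 those of the stalk of the large subunit. The symbol rule also takes in paralogs such as Rpl3l and Rps27l, which are close relatives of a core gene.

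RNA of whole kidneys from mice 21 weeks old was sequenced in 11 libraries. The Ctr group was 3 libraries of C57B6 mice. The Lpr group was 4 libraries of untreated MRL/lpr mice, a strain that carries a mutation in Fas and develops a lupus-like kidney disease. The DNase group was 4 libraries of MRL/lpr mice given DNase I, an enzyme that cuts extracellular DNA, daily by intraperitoneal injection from week 17. Lpr and Ctr therefore differ in strain as well as in disease, and the contribution of each cannot be told apart. DNase is compared with Lpr within one strain. The study describes as many mice as libraries in each group.

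A ribosome is built from ribosomal RNA and about one copy of each ribosomal protein, so the genes of these proteins are expressed together at high levels in nearly every cell. Their mRNAs often start with a run of pyrimidines, the TOP motif, through which the mTOR kinase and the LARP1 protein set their translation. Most of these genes have left intronless, reverse-transcribed copies elsewhere in the genome, many of them almost identical in sequence to the parent gene.

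The counted reads per library ranged from 33469858 to 38460873. Proximal tubule and podocyte markers were detected above 1 CPM (counts scaled to a common library total) in every library, 7 of 7 and 5 of 5. Summed over 5 leukocyte markers, the level was 46.6 to 68.0 CPM in Ctr and 238 to 523 CPM in the 8 MRL/lpr libraries, with no overlap. In bulk RNA, more or fewer cells of a type and more or less RNA per cell cannot be told apart. Lpr replicate 3 stood apart from all other libraries: its log2 CPM, taken relative to the mean of all libraries, fell by 0.44 for each doubling of gene length, while the slopes of the other 10 lay between -0.04 and 0.08. Its 7 proximal tubule markers summed to 7284 CPM, the lowest of all, against 10014 to 13491 CPM elsewhere. Its podocyte (341 CPM) and endothelial (226 CPM) marker sums were the lowest as well, and its collecting duct sum (962 CPM) was the highest. The median gene lengths of these lists were 3126, 5330, 3658 and 1825 bases, in that order. The loop of Henle and distal tubule markers (median length 2867 bases) summed to 5060 CPM in replicate 3, above the 4776 CPM of Lpr replicate 2. The T cell, B cell, macrophage, neutrophil and leukocyte sums of replicate 3 were neither the lowest nor the highest of all libraries. Fold changes of Lpr against Ctr are given with and without Lpr replicate 3 for the genes called there.

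Ribosomal protein genes took a similar share of the counts in every library but one. The share was 2.49%, 2.51% and 2.34% in Ctr and 2.26%, 2.14%, 2.79% and 2.53% in DNase. It was 2.10%, 2.46%, 5.47% and 2.26% in Lpr, where the high value was that of replicate 3. Ctr averaged 2.45% ± 0.09 (SD, n = 3) and DNase 2.43% ± 0.29 (SD, n = 4). Lpr averaged 3.07% ± 1.61 (SD, n = 4), and without replicate 3 its mean was 2.27% ± 0.18 (SD, n = 3). The ranges of the Ctr, DNase and remaining Lpr libraries overlapped. Small and large subunit genes moved together in replicate 3, with 2.32% of counts on 40S genes against 0.85% to 1.00% in the other Lpr libraries, and 3.16% on 60S and stalk genes against 1.25% to 1.46%.

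**Figure D1:**
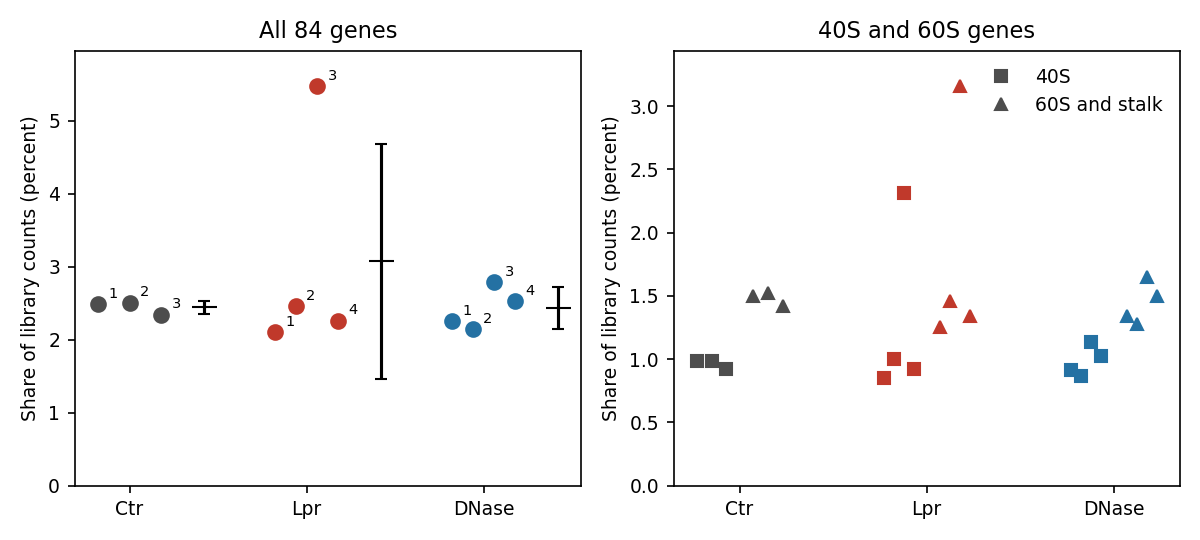
Share of library counts on ribosomal protein genes (percent, axis from 0), for all 84 genes at left and split into 40S genes and 60S and stalk genes at right. Points are libraries with replicate numbers beside them, and bars at left are the mean ± SD of each group. Lpr replicate 3 lies at 5.47%, and the other 10 libraries between 2.10% and 2.79%.

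By FPKM, which scales counts by gene length as well as by library total, the 71 genes above 100 FPKM made up most of the 84. Rpl41, a very short basic protein of the large subunit, had the highest mean over the 11 libraries (1640 FPKM). Rplp1, a stalk protein that helps recruit elongation factors, followed at 1451 FPKM, and Rps27, a small subunit protein with a zinc finger, at 826 FPKM. At the other end, Rpl32l had 1.13 FPKM and Rpl3l, a paralog of Rpl3 known from striated muscle, had 0.28 FPKM. Rpl39l, a paralog of Rpl39 known from testis, was counted once at most in any library and was the single gene of the 84 that did not pass the filter on low counts. The remaining 83 were tested in every comparison.

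In Lpr replicate 3 all 83 of these genes were above the mean of the other 3 Lpr libraries, with a median ratio of 2.47 in CPM, against a median of 0.87 over 16072 genes. The ratio ran from 1.31 for Rpl7l1, a paralog of Rpl7 that acts in ribosome assembly, to 5.83 for the scarcely counted Rpl32l, and it was above 2 for 71 genes. Most of the genes are short, with a median length of 827 bases and a range of 346 to 5136. All genes of 500 to 1000 bases had a median ratio of 2.04, and the 39 ribosomal protein genes in that class had 2.51. In the class of 1500 to 2000 bases the medians were 1.34 for all genes and 2.03 for the 11 ribosomal protein genes. They were closer in the class up to 500 bases, 2.49 for all genes and 2.78 for the 13 ribosomal protein genes. In the class of 2000 to 3000 bases they were 1.04 for all genes and 2.405 for the 5 ribosomal protein genes. The classes of 3000 to 4000 and 4000 to 6000 bases held 1 ribosomal protein gene each, at 2.67 and 3.21, against medians of 0.83 and 0.69 for all genes. The medians of all genes include the ribosomal protein genes. The part of gene length, of cell composition and of the state of this kidney in the high values of replicate 3 was not tested.

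**Figure D2:**
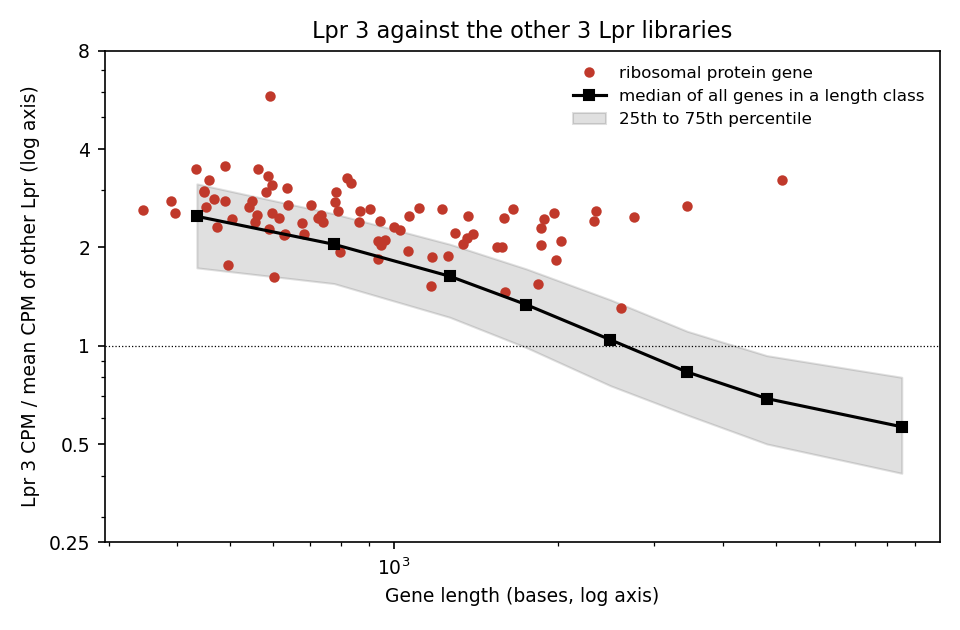
Ratio of CPM in Lpr replicate 3 to the mean of the other 3 Lpr libraries (log axis) against gene length in bases (log axis). Red points are ribosomal protein genes with at least 10 counts in some library, black squares are medians of all tested genes in a length class and the band spans their 25th to 75th percentile. The black medians fall from 2.49 in the shortest class to 0.56 in the longest, while 71 of 83 ribosomal protein genes lie above 2.

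Between untreated MRL/lpr and C57B6 kidneys, most ribosomal protein genes did not pass the test, and those that did were all lower in Lpr. At an adjusted p under 0.05 (edgeR's quasi-likelihood test, Benjamini-Hochberg adjustment over all genes), 7 of 83 genes were called lower, where 2.92% of all genes were, and 0 were called higher, where 7.27% of all genes were. The fitted log2 fold changes of 70 of the 83 genes nevertheless lay above 0, and their median was 0.48, where that of all genes was 0.03. Without Lpr replicate 3 this median was -0.04, and 36 genes lay above 0. In that fit 12 genes were called lower (6.79% of all genes) and 0 higher (11% of all genes). At an unadjusted p under 0.05 there were 10 of the 83 genes with all libraries (21.4% of all genes) and 16 without replicate 3 (31.4% of all genes). With the study's added rule of an absolute log2 fold change above 2, 6 genes were lower with all libraries (1.13% of all genes) and 7 without replicate 3 (1.37% of all genes). By that rule 0 were higher, where 4.65% of all genes were, or 4.74% without replicate 3. The Lpr and Ctr ranges did not overlap in 19 of 83 genes (25.4% of all genes), and in 24 without replicate 3 (38.4% of all genes).

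The 7 genes called in the full comparison were Rpl21, Rpl29, Rps2, Rpl34, Rpl26, Rps18 and Rpl35a, of which Rps2 and Rps18 belong to the small subunit and the other 5 to the large. The 5 added when replicate 3 was left out were Rpl30, Rplp0, Rpl14, Rpl3 and Rpl15, all of the large subunit. The 12 genes lie on 8 chromosomes. They are the same 12 genes that were called lower in DNase against Ctr, a comparison that shares the Ctr libraries and none of the MRL/lpr libraries.

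Rpl21, a large subunit protein whose mutation in people has been tied to hair loss, had the largest difference. It was counted at 74.8, 87.3 and 96.9 CPM in Ctr, at 1.84, 1.86, 4.83 and 2.61 CPM in Lpr, and at 2.27, 2.03, 2.46 and 2.03 CPM in DNase. Every MRL/lpr library lay below every Ctr library by a wide margin, Lpr replicate 3 included. The log2 fold change was -4.97 (standard error 0.40, adjusted p = 0.000357) in Lpr against Ctr, -5.43 (adjusted p = 4.34e-05) without replicate 3, and -5.39 (standard error 0.12, adjusted p = 2.87e-08) in DNase against Ctr, which is 41.9-fold lower.

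Rps2, the mammalian uS5 protein of the small subunit, is among the most counted of the 12 in Ctr. Its level was 742, 615 and 578 CPM in Ctr, 62.1, 61.2, 140 and 59.1 CPM in Lpr, and 59.3, 56.5, 77.4 and 70.6 CPM in DNase. The groups did not overlap. Its log2 fold change was -3.01 (adjusted p = 0.00162) in Lpr against Ctr, -3.48 without replicate 3 and -3.38 (adjusted p = 1.37e-06) in DNase against Ctr.

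Rpl29, a large subunit protein also described as a heparin-binding protein, had the tightest Ctr values. It had 163, 164 and 167 CPM in Ctr, 14.4, 20.4, 26.0 and 16.5 CPM in Lpr, and 17.4, 16.8, 19.1 and 18.1 CPM in DNase. Its log2 fold change was -3.12 (adjusted p = 0.000338) in Lpr against Ctr, -3.34 without replicate 3 and -3.30 (adjusted p = 2.87e-08) in DNase against Ctr. Rpl26, which sits near the exit of the peptide tunnel and is known to bind p53 mRNA, had 357, 391 and 372 CPM in Ctr, 42.2, 55.1, 123 and 41.99 CPM in Lpr, and 48.0, 42.2, 50.4 and 47.5 CPM in DNase. Its log2 fold change was -2.52 (adjusted p = 0.00579) in Lpr against Ctr, -3.08 (adjusted p = 5.97e-05) without replicate 3 and also -3.08 (adjusted p = 1.72e-07) in DNase against Ctr. In both genes the highest MRL/lpr value was that of Lpr replicate 3, and it still lay below the lowest Ctr value.

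Rpl35a, one of the genes mutated in Diamond-Blackfan anaemia, had 285, 269 and 251 CPM in Ctr, 48.1, 63.9, 137 and 49.6 CPM in Lpr, and 54.4, 47.2, 63.0 and 57.1 CPM in DNase. Its log2 fold change was -1.85 (adjusted p = 0.0189) in Lpr against Ctr, -2.39 without replicate 3 and -2.37 (adjusted p = 2.12e-06) in DNase against Ctr. The Lpr calls of Rpl35a and Rps18 were lost when any one of the 3 Ctr libraries or Lpr replicate 2 was left out, with adjusted p-values of 0.0559 to 0.071 for Rpl35a and 0.0543 to 0.0639 for Rps18. Their log2 fold changes stayed between -2.10 and -1.78 in those fits.

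The other 5 genes had smaller differences. Rpl30, a protein of the large subunit, had 175, 169 and 180 CPM in Ctr, 55.9, 81.5, 152 and 71.1 CPM in Lpr, and 65.2 to 81.6 CPM in DNase. Rplp0, the base of the stalk and a common reference gene in quantitative PCR, had 827, 896 and 821 CPM in Ctr, 399, 410, 859 and 395 CPM in Lpr, and 375 to 492 CPM in DNase. In Rplp0 the value of Lpr replicate 3 fell inside the Ctr range, and the other 7 MRL/lpr libraries lay below it.

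In DNase against Ctr the log2 fold change was -1.34 (adjusted p = 1.03e-05) for Rpl30 and -1.08 (adjusted p = 2e-04) for Rplp0. It was -1.03 (adjusted p = 0.000183) for Rpl14 and -0.69 (adjusted p = 0.00194) for Rpl3, which forms part of the peptidyl transferase centre's surroundings. The smallest was that of Rpl15, -0.40 (adjusted p = 0.0137). With all 3 groups in one fit, Rpl3 and Rpl15 were no longer called (adjusted p = 0.145 and 0.391). Without Lpr replicate 3 the same genes had -1.40, -1.15, -1.05, -0.76 and -0.49 in Lpr against Ctr, with adjusted p-values from edgeR of 0.000441 to 0.0113.

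**Figure D3:**
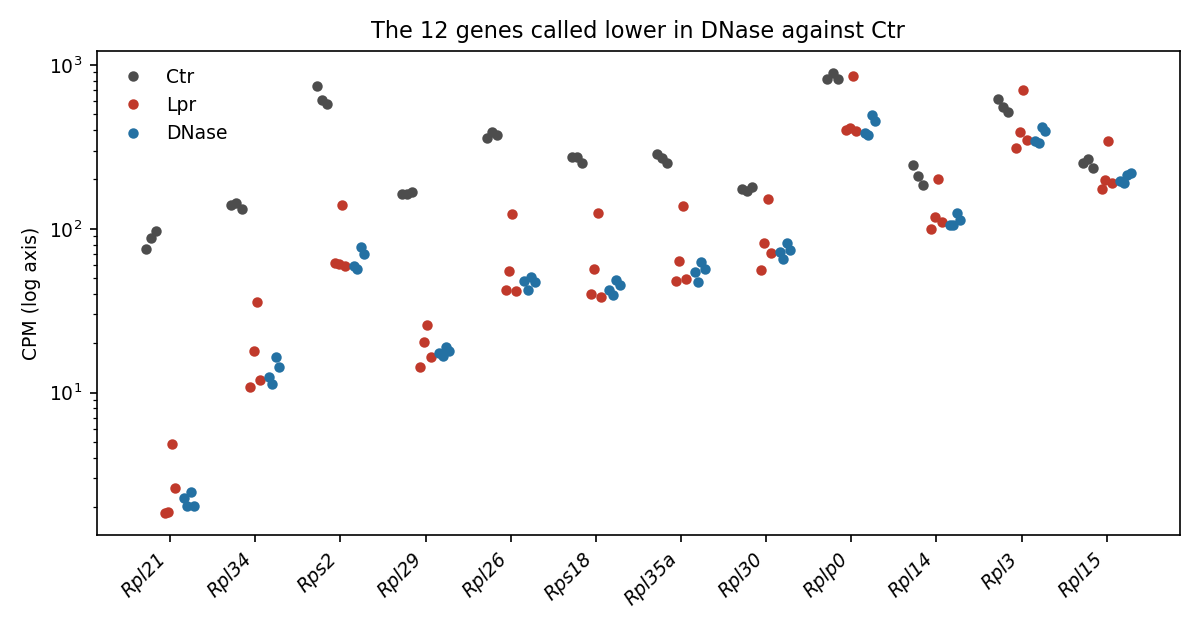
CPM per library (log axis) of the 12 genes called lower in DNase against Ctr, ordered by log2 fold change, with 3 Ctr, 4 Lpr and 4 DNase libraries each. For the first 8 genes, from Rpl21 at 1.84 CPM upwards, every MRL/lpr point lies below every Ctr point. In Rplp0, Rpl14, Rpl3 and Rpl15 the highest Lpr point, that of replicate 3, reaches the Ctr values.

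Counting libraries alone, all 8 MRL/lpr libraries lay below all 3 Ctr libraries in 8 of 83 genes, where 5.58% of all genes did: Rpl21, Rpl26, Rpl29, Rpl30, Rpl34, Rpl35a, Rps18 and Rps2. All 8 lay above in 9 genes, where 13.4% of all genes did: Rpl27a, Rpl28, Rpl32l, Rpl7l1, Rps12, Rps19, Rps20, Rps26 and Rps4x. In Rps12, where the Ctr libraries had 160 to 177 CPM and the MRL/lpr libraries 186 to 660 CPM, the log2 fold change in DNase against Ctr was 0.28 (adjusted p = 0.152).

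Among the 12 genes, Rpl34 and Rps18 each have a copy, 99.4% and 99.1% identical over the coding sequence, that was called higher in both MRL/lpr groups against Ctr. These copies are shown here because a read from the shared stretch can be placed on either gene. In the GENCODE annotation of mouse build GRCm38, Rpl34 lies at chr3:130726831-130730398 on the minus strand and its processed pseudogene Rpl34-ps1 at chr6:71124610-71124963 on the plus strand. Over the 354 coding bases they differ at 2 positions, T132C and C318G, counted from the first base of the start codon, with the base of Rpl34 first. Bases 112 to 338 of the Rpl34 coding sequence and of the copy are given with the differing bases in capitals.
Rpl34: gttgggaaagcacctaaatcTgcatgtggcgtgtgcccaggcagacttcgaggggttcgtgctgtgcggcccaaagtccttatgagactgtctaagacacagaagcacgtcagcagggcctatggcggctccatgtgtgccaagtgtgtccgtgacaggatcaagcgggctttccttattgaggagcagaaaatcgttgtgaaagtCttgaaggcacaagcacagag
Rpl34-ps1: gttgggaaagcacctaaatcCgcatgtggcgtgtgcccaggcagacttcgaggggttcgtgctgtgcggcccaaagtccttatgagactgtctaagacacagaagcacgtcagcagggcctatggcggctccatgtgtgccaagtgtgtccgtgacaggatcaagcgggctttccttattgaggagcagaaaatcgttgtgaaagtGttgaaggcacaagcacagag

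The count of Rpl34 was lower and that of its copy higher in the MRL/lpr groups than in Ctr. Rpl34 had 140, 143 and 132 CPM in Ctr, 10.8, 17.97, 35.6 and 11.98 CPM in Lpr, and 12.5, 11.2, 16.4 and 14.4 CPM in DNase. Rpl34-ps1 had 15.03, 10.04 and 8.76 CPM in Ctr, 86.7, 103, 266 and 104 CPM in Lpr, and 96.7, 92.0, 126 and 116 CPM in DNase. No MRL/lpr library overlapped a Ctr library in either gene. For Rpl34 the log2 fold change was -2.87 (adjusted p = 0.00375) in Lpr against Ctr, -3.42 without replicate 3 and -3.44 (adjusted p = 6.92e-07) in DNase against Ctr. For Rpl34-ps1 it was 3.63 (adjusted p = 0.00259), 3.05 without replicate 3 and 3.16 (adjusted p = 1.17e-05).

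Added together, the gene and its copy had 155, 153 and 140 CPM in Ctr, 97.4, 121, 301 and 116 CPM in Lpr, and 109, 103, 143 and 130 CPM in DNase. Summed as one feature, their log2 fold change was 0.08 (adjusted p = 0.93) in Lpr against Ctr and -0.39 (standard error 0.12, adjusted p = 0.0462) in DNase against Ctr. Without Lpr replicate 3 it was -0.49 (adjusted p = 0.0143) in Lpr against Ctr, so that library decided whether the sum was called. These sums were added after the counts were seen.

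**Figure D4:**
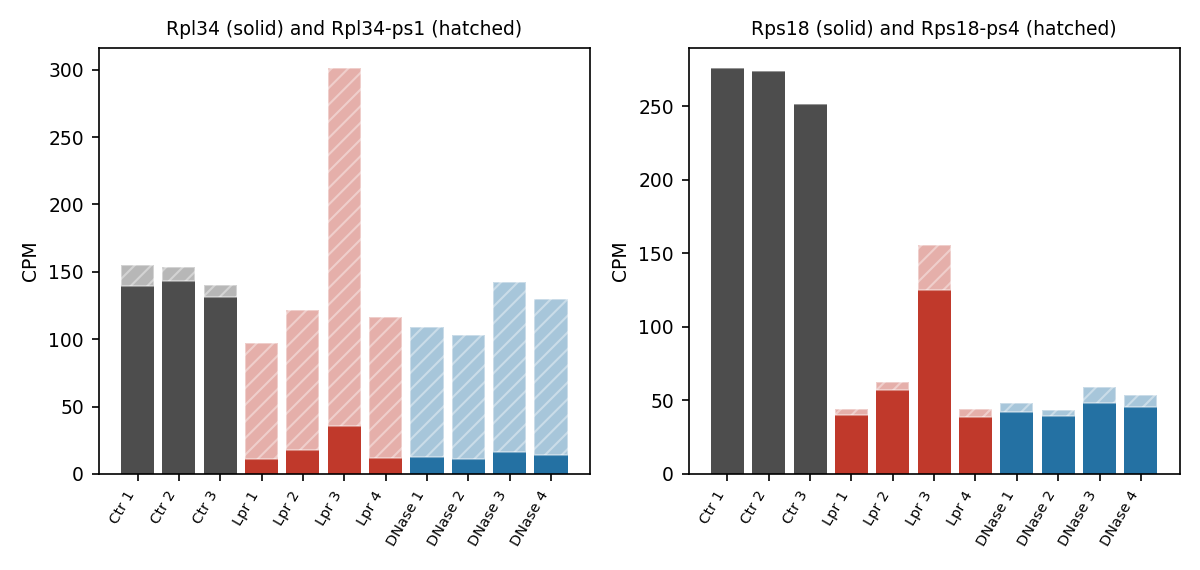
CPM per library (axes from 0) of Rpl34 stacked with Rpl34-ps1 at left and of Rps18 stacked with Rps18-ps4 at right, solid for the gene and hatched for the copy. In the MRL/lpr libraries most of the stacked Rpl34 counts lie on the copy, 86.7 to 266 CPM against 10.8 to 35.6 CPM on the gene, while the Rps18 copy adds at most 30.5 CPM.

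The other gene is Rps18, a protein of the head of the small subunit, at chr17:33951999-33956001 on the minus strand. Its copy is counted under the name Rps18-ps4, a synonym of the GENCODE gene Gm26619, a long noncoding RNA at chr13:97751112-97760965 on the plus strand. The Rps18-like stretch lies on the opposite strand of that RNA. Over 459 coding bases the pair differs at T186C, A337C, G371A and G431A. Bases 166 to 451 are given in the direction of Rps18, with the differing bases in capitals.
Rps18: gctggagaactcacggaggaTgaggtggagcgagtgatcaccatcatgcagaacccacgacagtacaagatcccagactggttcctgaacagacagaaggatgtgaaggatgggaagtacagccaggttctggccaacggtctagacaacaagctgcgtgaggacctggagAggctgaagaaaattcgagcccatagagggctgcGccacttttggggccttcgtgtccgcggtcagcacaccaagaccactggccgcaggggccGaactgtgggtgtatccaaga
Rps18-ps4: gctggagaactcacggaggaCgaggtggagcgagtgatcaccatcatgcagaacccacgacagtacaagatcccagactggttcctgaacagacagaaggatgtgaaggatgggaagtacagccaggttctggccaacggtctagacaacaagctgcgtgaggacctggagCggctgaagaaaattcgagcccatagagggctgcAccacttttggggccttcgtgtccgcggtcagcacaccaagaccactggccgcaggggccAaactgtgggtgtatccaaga

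Rps18 had 276, 274 and 251 CPM in Ctr, 39.9, 57.1, 125 and 38.6 CPM in Lpr, and 42.2, 39.2, 48.5 and 45.4 CPM in DNase. Rps18-ps4 had 0.157, 0 and 0.0295 CPM in Ctr, 4.46, 5.49, 30.5 and 5.86 CPM in Lpr, and 4.41 to 10.9 CPM in DNase. Both genes separated the MRL/lpr libraries from the Ctr libraries without overlap, in opposite directions. For Rps18 the log2 fold change was -2.04 (adjusted p = 0.0182) in Lpr against Ctr, -2.64 without replicate 3 and -2.70 (adjusted p = 5.69e-07) in DNase against Ctr. The gain of the copy was far smaller in CPM than the loss of the gene: together they had 251 to 276 CPM in Ctr and 43.6 to 155 CPM in the MRL/lpr libraries. Summed as one feature, the log2 fold change was -1.80 (adjusted p = 0.042) in Lpr against Ctr, -2.48 (adjusted p = 0.000172) without replicate 3 and also -2.48 (adjusted p = 2.37e-06) in DNase against Ctr.

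Listed pseudogene copies made up little of the difference in Rpl21, Rpl29, Rps2, Rpl35a and Rpl30. Of the remaining genes, Rpl26, Rplp0 and Rpl14 have no listed copy, and summed fits of Rpl3 and Rpl15 are not given. With its 6 listed pseudogene copies, Rpl21 had 75.1 to 97.2 CPM in Ctr and 2.37 to 6.69 CPM in the MRL/lpr libraries. With its 3 copies, Rps2 had 581 to 745 CPM in Ctr and 60.01 to 150 CPM in the MRL/lpr libraries. Summed as one feature, the log2 fold change in DNase against Ctr was -5.01 for Rpl21, -3.30 for Rpl29, -3.31 for Rps2, -2.34 for Rpl35a and -1.34 for Rpl30. A coding gene, BC004004, also holds an Rpl21-like stretch (98.6% identical over the coding sequence), and its counts were 171 to 194 CPM in Ctr and 170 to 219 CPM in the MRL/lpr libraries. By edgeR, the Rps2 copy Gm10420 and the Rpl35a copy Gm10029 were called higher in DNase against Ctr, but not in Lpr against Ctr. Their log2 fold changes in DNase against Ctr were 1.04 (adjusted p = 0.0329) and 1.58 (adjusted p = 0.024). Other listed copies of ribosomal protein genes were called lower there: Gm45855 at -1.72 (adjusted p = 0.00331) and Gm5148 at -7.56 (adjusted p = 3.47e-05). All of these were scarce, at 7.44 CPM or less in every library.

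Copies that are not in the count table could not be followed. Across all transcripts of the annotation, the 12 genes called lower in DNase against Ctr had a median of 9.5 copies each at 95% identity or more over at least 70% of the coding sequence, with a range from 1 for Rpl14 to 58 for Rpl21. The 70 other genes with a value had a median of 4 copies and a range of 0 to 33. The ranges overlapped: Rpl7a had 33 copies and Rps12 had 23, and neither was called lower. Whether reads of the MRL/lpr kidneys were placed on other copies or left uncounted was not tested.

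DNase I treatment moved no ribosomal protein gene past the threshold. In DNase against Lpr 0 of 83 genes were called (0% of all genes in either direction), and 0 had an unadjusted p under 0.05 (5.6% of all genes), by edgeR. DESeq2 and limma on FPKM also called 0. All 83 fitted log2 fold changes were below 0, with a median of -0.43 and a range of -0.83 to -0.09, against a median of -0.02 over all genes. Without Lpr replicate 3, 75 of 83 were above 0, the median was 0.07, and 0 genes were called. No gene of the 83 had DNase and Lpr ranges that did not overlap, with or without replicate 3, where 3.94% and 9.52% of all genes did.

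The members at the ends of that comparison show how far 1 library carried it. Rpl22l1, a paralog of Rpl22 that can replace it, had the lowest log2 fold change, -0.83. It had 23.7, 42.5, 115 and 31.1 CPM in Lpr and 30.01, 26.4, 37.8 and 32.6 CPM in DNase, so every DNase value lay within the range of the 3 Lpr libraries other than replicate 3. Rps21, which takes part in the maturation of small subunit RNA, had 133, 160, 518 and 155 CPM in Lpr and 149, 130, 198 and 167 CPM in DNase. Rpl37a had 200, 226, 700 and 208 CPM in Lpr and 192 to 274 CPM in DNase. Closest to 0 were Rpl7l1 at -0.09, Rpl4 at -0.10 and Rpl29 at -0.18.

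**Figure D5:**
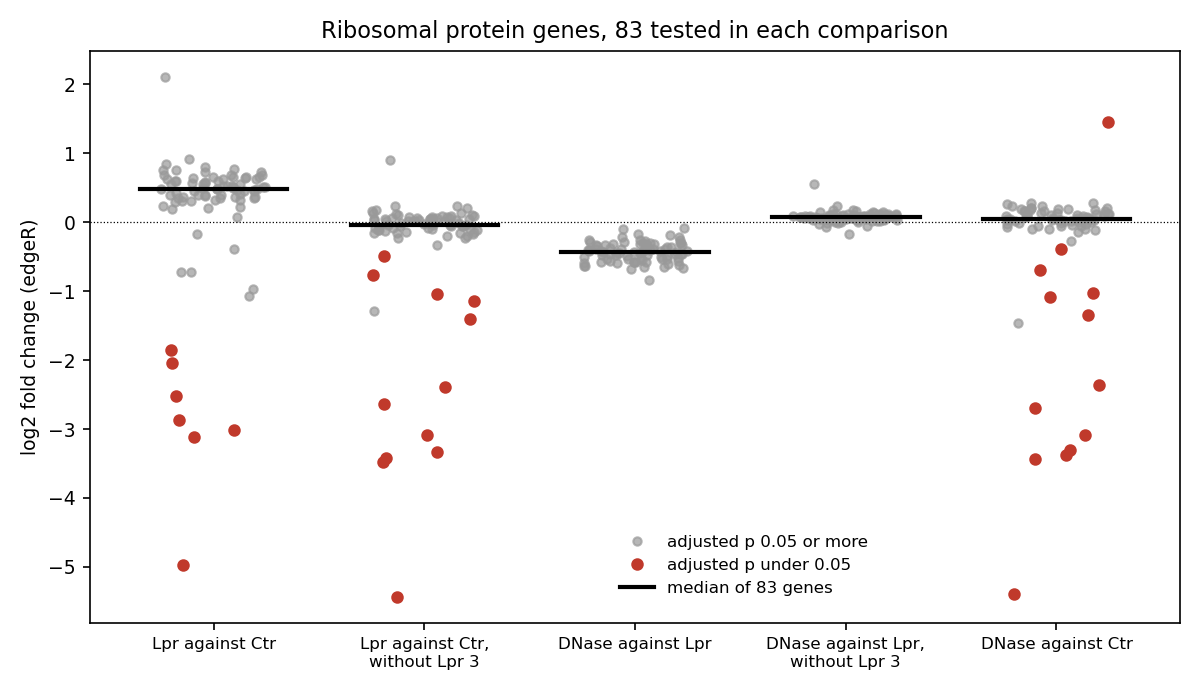
Fitted log2 fold changes of the 83 tested ribosomal protein genes in each comparison, with all libraries and, for those with Lpr, without Lpr replicate 3. Red points have an adjusted p under 0.05 and black bars are medians. The median moves from 0.48 to -0.04 in Lpr against Ctr and from -0.43 to 0.07 in DNase against Lpr when replicate 3 is left out, and the red points far below 0 stay in both comparisons with Ctr.

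DNase against Ctr does not use Lpr replicate 3. Here 12 of 83 genes were called lower (8.61% of all genes) and 1 higher (13.1% of all genes). With an absolute log2 fold change above 2 as well, 7 were lower (1.45% of all genes) and 0 higher (4.56% of all genes). The ranges of the groups did not overlap in 30 of 83 genes (33.5% of all genes). The median log2 fold change was 0.04, against 0.00 over all genes. Apart from the 12 genes called lower, 69 of 71 genes lay within 0.3 of 0. The 1 gene called higher was Rpl32l, with 7 to 94 counts per library. It had 0.184, 0.269 and 0.236 CPM in Ctr, 0.669, 0.323, 2.61 and 0.352 CPM in Lpr, and 0.891, 0.452, 0.549 and 0.806 CPM in DNase. Its log2 fold change of 1.45 (adjusted p = 0.0289) passed the threshold no longer without any one of the Ctr libraries, DNase replicate 1 or DNase replicate 4, with adjusted p-values of 0.0518 to 0.111. With limma on log2(FPKM + 1), which scales by library totals, 6 genes were called higher and 12 lower. The shares of all genes given above are from edgeR, and those of the limma fit are not given here.

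Within the stalk, Rplp0 differed from its partners in size of change. Rplp1 had 570, 562 and 541 CPM in Ctr and 550, 519, 727 and 612 CPM in DNase, and Rplp2 had 224, 198 and 195 CPM in Ctr and 211, 203, 290 and 244 CPM in DNase. Their log2 fold changes in DNase against Ctr were 0.02 and 0.11, neither past the threshold, beside the -1.08 of Rplp0. Rpsa, the laminin receptor precursor that is also a small subunit protein, had 602 to 640 CPM in Ctr and 530 to 746 CPM in DNase, with a log2 fold change of -0.10 (adjusted p = 0.648).

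Paralogs can be set beside their partners on the FPKM scale. Rpl7l1 had a mean of 29.1 FPKM against 586 for Rpl7, Rps27l 45.8 against 826 for Rps27, and Rpl22l1 81.4 against 93.1 for Rpl22. Rpl3l had 0.28 FPKM against 291 for Rpl3. None of these paralogs was called in any comparison, and of the partners only Rpl3 was. Rpl3l had 0.472 to 1.49 CPM in Ctr and 0.201 to 0.480 CPM in DNase, with a log2 fold change of -1.47 (adjusted p = 0.0573). Rps4x, the X-linked small subunit gene, had 425, 443 and 421 CPM in Ctr and 504, 499, 598 and 558 CPM in DNase, with a log2 fold change of 0.23 (adjusted p = 0.117). Rpl10 and Rpl39 had log2 fold changes of 0.09 and 0.02.

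Of 4 further genes tested of ribosomal or ribosome-bound proteins outside the symbol rule, 1 was called, Rpl36al, a paralog in the large subunit family (log2 fold change 0.28 in DNase against Ctr, adjusted p = 0.0395). In that comparison 13.1% of all genes were called higher and 8.61% lower. Fau, which encodes a small subunit protein fused to a ubiquitin-like protein, had 254, 237 and 220 CPM in Ctr and 265, 250, 376 and 317 CPM in DNase, with a log2 fold change of 0.25 (adjusted p = 0.259). Rack1, a scaffold protein on the head of the small subunit, had a log2 fold change of 0.09 (adjusted p = 0.658). Fau and Rack1 did not pass the threshold in any comparison. In Lpr replicate 3 both were high as well, Fau with 778 CPM against 256 to 291 CPM in the other Lpr libraries.

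Promoters were read from RefSeq windows of build GRCm38.p6, 250 bases before to 50 after an annotated start, which matched 63 of the 84 genes. A run of at least 8 pyrimidines (C or T) that touches the 10 bases on either side of the start was present in 30 of these 63 genes (47.6%), against 16.7% of 19315 genes in the table with a window. The letters CCGGAAG, the core bound by ETS factors, occurred on either strand in 41.3% of the 63 and in 12.9% of all 19315, and TATAAA in 12.7% and 12.5%. Of the 12 genes called lower in DNase against Ctr, 8 had a window, and 5 of these had a run. Windows of 30 bases around the annotated start are given for 3 genes with a long run (in capitals) and for Rpl26, which has a run of 3. They lie at chr2:26910792-26910821 on the plus strand for Rpl7a, at chr7:109519180-109519209 on the plus strand for Rpl27a, at chr3:130730323-130730352 on the minus strand for Rpl34 and at chr11:68901551-68901580 on the plus strand for Rpl26. Each window is centred on an annotated start, and the run of Rpl34 begins before its window.
Rpl7a: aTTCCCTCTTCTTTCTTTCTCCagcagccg
Rpl27a: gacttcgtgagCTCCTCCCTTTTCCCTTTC
Rpl34: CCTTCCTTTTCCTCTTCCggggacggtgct
Rpl26: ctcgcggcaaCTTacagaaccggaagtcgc

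The run was present in Rpl34 and in Rpl27a, of which the first was called lower against Ctr and the second was not (log2 fold change 0.20 in DNase against Ctr, adjusted p = 0.218).

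In DNase against Ctr, where 13.1% of all genes were called higher and 8.61% lower, the translation machinery around the ribosome was described list by list. Of 30 initiation factors 0 were called higher and 4 lower (13.3% of the list), led by Eif3l, a subunit of the eIF3 complex (log2 fold change -0.49, adjusted p = 0.00198). Of 14 elongation and release factors, 0 were called by edgeR in DNase against Ctr, and 1 had an unadjusted p under 0.05. A list of 14 genes held regulators of ribosomal protein mRNA translation and the transcription factors Myc, Mycn and Max. Of these 14, 2 were higher and 2 lower (14.3% of the list each). Tsc2, which restrains mTOR, and Mtor itself fell by 0.47 and 0.57 on the log2 scale, and Larp4 and Max rose by 0.35 and 0.29. Of 40 biogenesis genes, 1 was higher (Nolc1) and 2 lower (Polr1d and Wdr74).

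Nuclear genes of the mitochondrial ribosome and of the respiratory chain, which are also mostly short, were compared in the same way. Without replicate 3 the share of all genes called lower in Lpr against Ctr rose from 2.92% to 6.79%. Of 78 mitochondrial ribosomal protein genes, 0 were called in Lpr against Ctr with all libraries, and 1 was higher and 12 were lower (15.4% of the list) without replicate 3, at medians of 0.13 and -0.19. In DNase against Ctr 1 was higher (1.28% of the list) and 8 were lower (10.3% of the list), led by Mrps27 and Mrpl27. Of all genes, 13.1% were called higher and 8.61% lower in that comparison. Of 54 subunits of the respiratory chain and ATP synthase, 0 were called in Lpr against Ctr with all libraries and 28 were lower (51.9% of the list) without replicate 3, at medians of 0.15 and -0.35. These medians stood at -0.04 for the 83 cytosolic ribosomal protein genes without replicate 3, and the difference between the lists was not tested.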

How the data were processed

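Kidney RNA in 3 Ctr, 4 Lpr and 4 DNase libraries was analysed. Raw read counts per gene were deposited by the authors, with FPKM made from the same counts. Per the labels and the study's methods, total RNA was extracted with TRIzol, reads were cleaned with fastp, counted with HTSeq against mm10 and tested with DESeq2 in R 3.2.0. The aligner's handling of reads that fit several copies is not given in the sources used here. Counts were tested in pairs of groups with edgeR 4.0.16 (filterByExpr, TMM, quasi-likelihood test) in R 4.3.3, with Benjamini-Hochberg adjustment over all genes tested. A gene was called at an adjusted p under 0.05, and the study's rule (absolute log2 fold change above 2) is given beside it. The log2 CPM used for length slopes had a prior count of 2. Gene length was taken as counts divided by FPKM and library total. DESeq2 1.42.0, limma 3.58.1 on FPKM (pseudocount 1 or 0.1, genes averaging 0.5 FPKM or more), other scalings, a length offset, one fit of all groups, a replicate block and leaving out each library were alternatives. The main edgeR fit, the length offset, the replicate block, DESeq2 and limma with a pseudocount of 1 were tested on simulated data. The other alternatives were not. Copies were found with blastn 2.17.0 of coding sequences against GENCODE vM21 transcripts.

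The members, lists and alternatives were chosen with earlier results of these data known. Genes were named by rule: called members (at most 12, else the 6 largest and 6 smallest changes), the 3 largest and 3 smallest changes in each comparison, paralogs and partners, stalk genes and Rpsa, the 3 highest and 3 lowest by FPKM, pseudogene copies of 10 CPM or called, and Fau and Rack1. A gene that the rule also takes in is not reported here. Rpl27a, Rpl7a and the genes named by libraries that do not overlap or by copy number were chosen after their values were seen. So were the copies Gm10420, Gm10029, Gm45855 and Gm5148. Replicates are the libraries the labels number within a group, as many as the mice the study describes, and no pair of libraries agreed within sampling noise (chi-square per degree of freedom 17.5 to 393 within groups). Replicate numbers did not pair the libraries: the correlations of same-numbered deviations were -0.29 to 0.16.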

Additional observations from a re-analysis of the deposited data

Results flagged for a closer look

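In groups of 4 libraries, a value was marked when the gap from the highest or lowest library to its neighbour, divided by the range, exceeded Dixon's critical value for 4 samples, which chance exceeds in about 1 in 20 groups. In every marked case listed below the library was Lpr replicate 3, and 0 of 84 genes were marked in the DNase group. Of the 84 ribosomal protein genes 63 (75%) were marked in Lpr through replicate 3, the only library counted for this number. Of all genes tested 14.1% were marked in Lpr, where a mark through any Lpr library was counted.

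For the share of counts on the 84 genes the ratio was 0.892, for that on 40S genes 0.895, for that on 60S and stalk genes 0.89, and for the slope of counts on gene length 0.919.

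Among the genes called lower against Ctr, the ratio was 0.963 for Rps2, 0.839 for Rpl26, 0.968 for Rplp0 and 0.862 for Rpl15. Among genes at the ends of a comparison it was 0.93 for Rps21, 0.91 for Rps12, 0.849 for Rpl32l, 0.948 for Rpl37a and 0.85 for Rps20. Among paralogs and partners it was 0.958 for Rps27l, 0.927 for Rpl10, 0.914 for Rpl22, 0.901 for Rpl39, 0.881 for Rps4x and 0.853 for Rps27. It was 1 for Rpl39l, where it rests on a single count. For the stalk genes it was 0.881 for Rplp1 and 0.933 for Rplp2, for Rpsa 0.845 and for Rpl41 0.943. For the copies it was 0.902 for Rpl34-ps1 and 0.946 for Rps18-ps4, and for the genes outside the symbol rule 0.933 for Fau and 0.849 for Rack1.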

How the results depend on the processing

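Precision was limited by the 3 or 4 libraries per group more than by depth, except for Rpl32l, Rpl3l and Rpl39l with at most 94 counts in a library. The number of called genes in Lpr against Ctr was 7 and rose to 11, all lower, with a length offset per library. Leaving out 1 library gave 5 to 12, the highest without Lpr replicate 3. The median log2 fold change there ranged from -0.036 to 0.62. In DNase against Lpr 0 genes were called in any fit and the median ranged from -0.58 to 0.069, above 0 without Lpr replicate 3. In DNase against Ctr 13 genes were called, 7 with the fold threshold, and 12 to 13 when 1 library was left out. Its median of 0.04 was -0.052 with the length offset and -0.021 to 0.11 over the fits without 1 library. The replicate block gave 7 calls in Lpr against Ctr, 0 in DNase against Lpr and 11 in DNase against Ctr (Rpl15 and Rpl32l lost), and one fit of all 3 groups gave 10 there, without Rpl3, Rpl15 and Rpl32l. The replicate numbers share no known source. Counting member and pseudogene copies as 1 feature, an alternative chosen after seeing the data, gave 6, 0 and 13 calls. Shares of all genes called with the length offset, the replicate block, the fit of all groups or summed copies are not given here. Whether these counts follow those shares was not tested.

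The share of counts per group was 3.07% in Ctr, 3.65% in Lpr (2.71% without replicate 3) and 2.90% in DNase with the 20 most counted genes of any library left out, and 6.25% in Ctr, 7.60% in Lpr and 6.48% in DNase as a share of summed FPKM. Leaving out 1 library gave means of 2.42% to 2.50% in Ctr, 2.27% to 3.40% in Lpr and 2.31% to 2.53% in DNase. The following log2 fold changes changed sign under a setting. With the length offset, Rpl4 was at 0.0043 and Rpl7 at 0.0019 in DNase against Lpr. In DNase against Ctr it put Rps27l at -0.079, Rpl10 at -0.0051, Rpl39 at -0.068, Rps27 at -0.034, Rplp1 at -0.077 and Rack1 at -0.017. Rps27l was at -0.0074 with RLE size factors and -0.0050 with DESeq2. The replicate block put Rps27l at -0.058, Rpl39 at -0.034 and Rplp1 at -0.016. Limma put Rpl22 at 0.039 and Rpl41 at 0.048 with a pseudocount of 1, and at 0.039 and 0.048 with 0.1.

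Leaving out Lpr replicate 3 turned the sign of 30 named genes in DNase against Lpr and of 7 in Lpr against Ctr. Over the fits without 1 library, the log2 fold change in DNase against Lpr ran from lowest to highest as follows: Fau -0.66 to 0.11, Rack1 -0.39 to 0.074, Rpl10 -0.39 to 0.073, Rpl14 -0.42 to 0.021, Rpl15 -0.33 to 0.096, Rpl21 -0.59 to 0.045, Rpl22 -0.55 to 0.15, Rpl29 -0.30 to 0.041, Rpl3 -0.44 to 0.076, Rpl30 -0.55 to 0.058, Rpl32l -0.97 to 0.56, Rpl34-ps1 -0.64 to 0.11, Rpl35a -0.68 to 0.020, Rpl37a -0.85 to 0.065, Rpl39 -0.83 to 0.15, Rpl4 -0.20 to 0.10, Rpl41 -0.77 to 0.060, Rpl7 -0.37 to 0.18, Rpl7l1 -0.17 to 0.058, Rplp0 -0.47 to 0.067, Rplp1 -0.76 to 0.023, Rplp2 -0.83 to 0.065, Rps12 -0.84 to 0.047, Rps18-ps4 -1.03 to 0.46, Rps2 -0.51 to 0.094, Rps20 -0.70 to 0.046, Rps21 -0.88 to 0.088, Rps27l -0.42 to 0.23, Rps4x -0.58 to 0.10 and Rpsa -0.44 to 0.067. In Lpr against Ctr it ran as follows: Rpl22 -0.20 to 0.51, Rpl22l1 -0.097 to 0.94, Rpl39 -0.12 to 0.86, Rpl41 -0.092 to 0.74, Rplp1 -0.0070 to 0.78, Rps27l -0.23 to 0.44 and Rpsa -0.16 to 0.35. In DNase against Ctr, 7 genes near 0 changed sign without 1 or more Ctr or DNase libraries: Rpl22 -0.11 to 0.0065, Rpl22l1 -0.24 to 0.0034, Rpl39 -0.079 to 0.11, Rpl41 -0.14 to 0.047, Rplp1 -0.084 to 0.083, Rps27 -0.029 to 0.13 and Rps27l -0.068 to 0.081. The cause of these changes was not tested.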
